A study of Homo sapiens with 95 samples.

Results

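FAT1 knockout cells were compared with GFP control cells of the same parental line, both kept in the solvent DMSO. The members of the comparison are 6 of the 95 SFL samples of the series, 3 labelled FAT1 and DMSO and 3 labelled GFP and DMSO, and every gene with a mean count above 1 over these 6 samples was tested. In SFL (sparse full length) sequencing, ribosomal RNA is depleted and many barcoded libraries are pooled and read together. All samples came from AALE, an immortalized human line of bronchial epithelium, grown in small airway growth medium. The FAT1 line was edited with CRISPR. The GFP line received a plasmid carrying Cas9 and EGFP but no guide RNA, so it shares the nuclease and the reporter and lacks the cut. The guide sequence, the number of clones in each line, the position of the edit and the length of the exposure are not given in the sources used here. Since the GFP line may itself depart from other AALE lines, named genes were also compared with 3 DMSO samples of HcRed, the vector control of the overexpression lines. The same FAT1 samples enter both comparisons, so they are not independent of each other. FAT1 against GFP was also read in cells exposed to 3 tobacco carcinogens, with 3 samples per group. These were CSC, a condensate of cigarette smoke at 24 μg/ml, the hydrocarbon benzo(a)pyrene (BaP) at 173 μM, and NNK, a tobacco nitrosamine, at 490 μM.

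FAT1 encodes a giant atypical cadherin that spans the cell membrane. In epithelial cells it is known for roles in cell polarity, actin organization at cell contacts and control of the Hippo pathway, whose kinases restrain the coactivators YAP and TAZ. It is often mutated in squamous carcinomas, where it is regarded as a tumour suppressor.

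The 6 samples held between 970886 and 1333632 counted reads, and the lowest of the 9 samples including HcRed held 694898. Pearson correlations of log2 CPM (counts scaled to the library total) across 10122 genes lay between 0.963 and 0.974 within groups and between 0.917 and 0.928 for FAT1 against GFP. The basal keratin gene KRT5 had at least 2851 reads in each of the 9 samples, and the epithelial cadherin gene CDH1 had at least 384. Levels of basal markers were not equal between lines. Of 8 defining basal markers, 5 were called lower and 1 higher in FAT1 than in GFP. Against HcRed 4 were lower and 2 higher, with 4 lower than both controls, KRT14 among them. Of 28 defining markers of ciliated, secretory, alveolar, fibroblast, leukocyte, endothelial and neuroendocrine cells, 11 had no read in any of the 9 samples. Only COL1A1, a collagen gene listed as a fibroblast marker, reached 10 reads, with 32, 19 and 20 in FAT1 and 11, 13 and 19 in GFP, and it did not pass the test. In bulk samples, fewer cells that express a gene and less RNA of it per cell cannot be told apart. The study calls its replicates biological, but neither it nor the labels say that they were separate cultures, so p-values measure only the spread between these samples, which may be technical.

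The FAT1 transcript (chr4:187508948-187647876 on hg19, minus strand) was reduced but not lost in the knockout line. It had 169, 124 and 123 reads in the FAT1 samples, 408, 413 and 582 in GFP, and 792, 417 and 691 in HcRed. These counts correspond to 121 ± 11 CPM in FAT1, 419 ± 30.3 in GFP and 656 ± 49.5 in HcRed (mean ± SD, n = 3 each). No FAT1 sample reached the lowest control sample. In limma-voom with Benjamini-Hochberg adjustment, used for every adjusted p below unless another tool is named, FAT1 was 3.47-fold lower than in GFP (log2 -1.80 ± 0.10 SE, adjusted p = 3.88e-18). Against HcRed the log2 difference was -2.45 ± 0.10 (adjusted p = 4.03e-43). Under the carcinogens it was -1.88 with CSC, -1.71 with BaP and -1.90 with NNK. Over all treatments the 12 FAT1 samples lay between 67.8 and 127 CPM, below all 83 samples of the other 7 lines, which lay between 261 and 1125 CPM. These levels check the labels and say nothing of the protein.

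**Figure D1:**
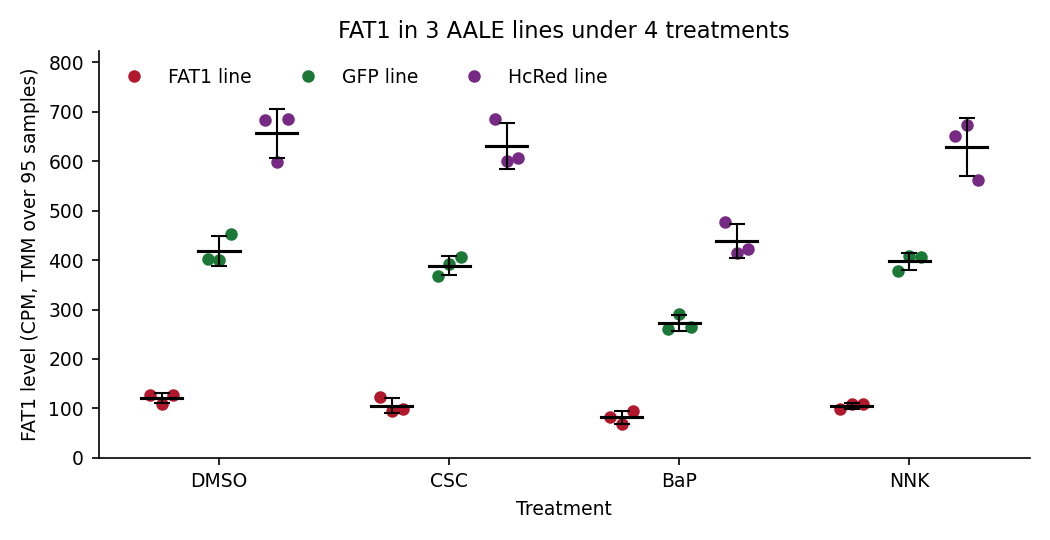
FAT1 level in CPM (vertical axis) under DMSO, CSC, BaP and NNK (horizontal axis) in the FAT1, GFP and HcRed lines, with a point per sample and bars for the mean ± SD of 3 samples. The FAT1 samples stay between 67.8 and 127 CPM, and the GFP samples between 261 and 454 CPM.

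Of 14266 genes tested, 3752 (26.3%) passed an adjusted p of 0.05 in FAT1 against GFP, with 1717 (12%) higher and 2035 (14.3%) lower in FAT1. Against HcRed, 1269 of 14190 genes (8.94%) were higher and 1503 (10.6%) were lower. The number of genes past the test against both control lines in the same direction was 628 higher (4.52% of the 13888 tested in both) and 855 lower (6.16%). A further 40 genes were higher than GFP but lower than HcRed, and 22 were lower than GFP but higher than HcRed. The background under carcinogens was 11.7% higher and 13.6% lower with CSC, 9.91% and 11.5% with BaP, and 7.41% and 9.75% with NNK. GFP itself differed from HcRed in 17.7% of the genes tested. These shares are what any list of genes has to be read against.

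Among the lists of related genes, interferon-stimulated genes and cytosolic ribosomal protein genes were mostly higher in FAT1 than in GFP. Genes of mitosis, clustered histone genes and genes of sterol and fatty acid synthesis were mostly lower. Each of these 5 lists had the same leading direction against HcRed. Of YAP targets 25% were higher and 15% lower than GFP, and of the Hippo core 4.76% each. Against HcRed the shares were 14.3% and 9.52% for YAP targets, and 9.52% and 23.8% for the Hippo core. All lists were chosen with earlier results of these data known, and their counts are a description.

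**Figure D2:**
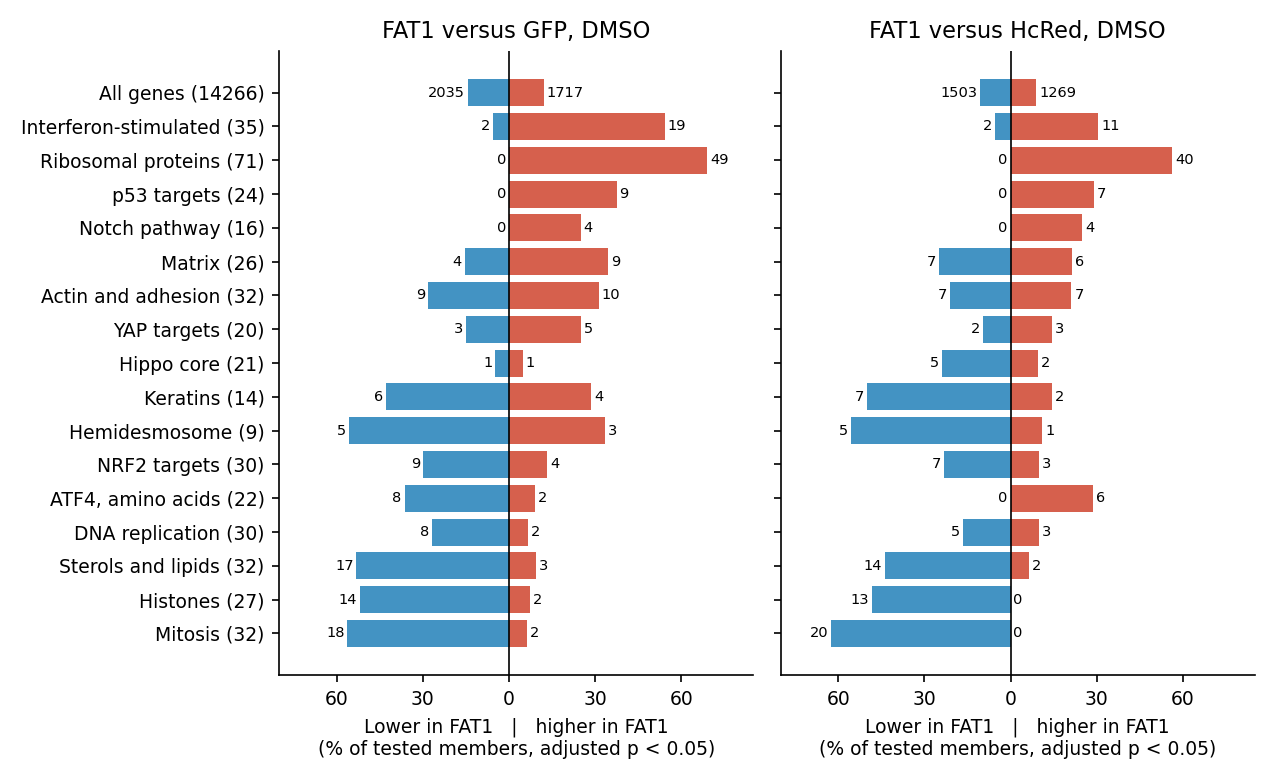
Percent of tested members of each list that were lower (blue, left) or higher (red, right) in the FAT1 line at an adjusted p below 0.05, against GFP and against HcRed in DMSO, with the number of genes at each bar end and the number tested against GFP in parentheses. Interferon-stimulated genes (19 higher, 2 lower) and ribosomal protein genes (49 and 0) extend to the right, and mitosis genes (2 higher, 18 lower) to the left.

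Interferon-stimulated genes are the effectors of the antiviral response. They are switched on when interferon receptors, or sensors of viral RNA and DNA in the cell, activate transcription factors that bind paired GAAA-like elements in their promoters. Of 35 listed genes tested, 19 were higher in FAT1 than in GFP and 2 were lower, with a median log2 difference of 1.25 against 0.01 over all genes. Among the 24 members averaging 10 or more reads per sample, 13 were higher and 2 lower, with a median of 0.78. Against HcRed, 11 of 36 were higher and 2 lower, with a median of 0.40. There were 10 genes higher than both controls. The counts under carcinogens were 19 higher and 0 lower with CSC, 19 and 1 with BaP, and 16 and 0 with NNK. GFP had the lowest level of the 8 lines in DMSO, with a mean log2 CPM over 24 of the genes of 4.63 ± 0.01 (SD, n = 3), and the HcRed line had 5.11 ± 0.05. The FAT1 line stood at 5.64 ± 0.02, with only the FGFR1 line above it at 5.74 ± 0.01.

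The promoters of several of these genes carry such an element close to the start. The windows are shown for genes described next. Differences from both controls were large for IFI44, IFIT1, IFIT3 and HERC5 and smaller for SAMD9. DDX60 was called higher than GFP but not than HcRed. Capitals mark a match to GAAA, any 2 bases and GAAA or, read on the other strand, TTTC, any 2 bases and TTTC, and the sequences are from the RefSeq promoter table for GRCh38.p14, written 5′ to 3′ on the strand of the gene and placed on GRCh37 (hg19) by a unique exact match.
IFI44 (chr1:79115446-79115473, plus strand, ending 1 base before the start): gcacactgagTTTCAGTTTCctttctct
IFIT1 (chr10:91152267-91152296, plus strand): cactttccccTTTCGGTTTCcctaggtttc
IFIT3 (chr10:91087622-91087651, plus strand): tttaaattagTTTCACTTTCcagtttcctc
HERC5 (chr4:89378186-89378215, plus strand): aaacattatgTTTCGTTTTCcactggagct
SAMD9 (chr7:92747409-92747438, minus strand): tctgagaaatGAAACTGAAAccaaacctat
DDX60 (chr4:169239937-169239966, minus strand): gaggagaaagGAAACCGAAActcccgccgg
The motif was searched on both strands of the 250 bases before the RefSeq start, with no other motif searched. It was found in 18 of the 28 tested genes of the list that had a promoter entry (64.3%), against 1061 of all 35116 promoters (3.02%). The first share counts genes and the second promoters. Interferon-stimulated genes are switched on through such elements, so this contrast follows from the choice of list and says nothing of the FAT1 line. Among the list it was found in 11 of 16 genes called higher (68.8%) and in 7 of 12 not called higher (58.3%), and no test was made of that difference. A match describes the letters of the window and not binding.

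IFI44, an antiviral gene of the interferon response, had 124, 90 and 79 reads in FAT1, 4, 4 and 5 in GFP, and 18, 7 and 17 in HcRed. The FAT1 samples were far above both controls, by 19.6-fold over GFP (log2 4.29 ± 0.39, adjusted p = 1.89e-11) and by log2 2.52 ± 0.26 over HcRed (adjusted p = 4.18e-14). Its mean was 84.6 CPM in FAT1 and at most 27.5 CPM in any of the other 7 lines.

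The IFIT genes encode proteins that bind viral RNA and block its translation. IFIT1 had 59, 54 and 35 reads in FAT1, 3, 2 and 8 in GFP, and 15, 11 and 22 in HcRed, so no sample of the FAT1 line overlapped a control. It was higher by log2 3.45 ± 0.44 over GFP (adjusted p = 6.01e-08) and by 1.36 ± 0.26 over HcRed (adjusted p = 1.88e-05). IFIT2 had 131, 105 and 113 reads against 10, 16 and 16 in GFP and 26, 11 and 31 in HcRed. Its log2 differences were 2.98 ± 0.25 (adjusted p = 1.67e-12) and 2.11 ± 0.22 (adjusted p = 2.98e-14). IFIT3 followed with 2.42 ± 0.25 and 1.93 ± 0.23 (adjusted p = 3.89e-10 and 2.84e-11). HERC5, the ligase that attaches the ubiquitin-like ISG15, had 37, 27 and 28 reads in FAT1, 4, 5 and 7 in GFP, and 9, 5 and 14 in HcRed. Its log2 differences were 2.38 ± 0.38 (adjusted p = 5.82e-06) and 1.45 ± 0.33 (adjusted p = 0.000425). These genes were separated from both controls in every sample.

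SAMD9, an antiviral restriction factor, had 478, 363 and 323 reads in FAT1, 224, 208 and 297 in GFP, and 222, 134 and 246 in HcRed. In CPM the groups did not overlap, and the log2 differences were 0.63 ± 0.09 over GFP (adjusted p = 3.47e-07) and 0.69 ± 0.10 over HcRed (adjusted p = 6.38e-09). DDX58, the RNA sensor RIG-I, was higher by 1.25 ± 0.17 over GFP (adjusted p = 3.66e-07) and by 1.02 ± 0.17 over HcRed (adjusted p = 1.06e-06).

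For other members the control line mattered. DDX60, a helicase that assists RNA sensing, had 76, 49 and 67 reads in FAT1, 15, 22 and 34 in GFP, and 56, 48 and 73 in HcRed. FAT1 was above GFP by log2 1.39 ± 0.23 (adjusted p = 1.03e-05), and it overlapped HcRed (-0.15 ± 0.17, adjusted p = 0.604). LGALS3BP, a secreted glycoprotein, showed the same with 1.76 ± 0.22 over GFP (adjusted p = 4.26e-08) and -0.33 ± 0.16 against HcRed (adjusted p = 0.126). IFI6 and ISG15, at 21 reads or fewer per sample, were higher than GFP by 2.42 ± 0.48 and 2.22 ± 0.59 (adjusted p = 0.000121 and 0.00383) and did not pass against HcRed (adjusted p = 0.0735 and 0.167). STAT2, a transcription factor upstream of these genes, had a log2 difference of 0.10 ± 0.13 against GFP (adjusted p = 0.597). Its value against HcRed is not given here, so this covers the GFP control only.

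**Figure D3:**
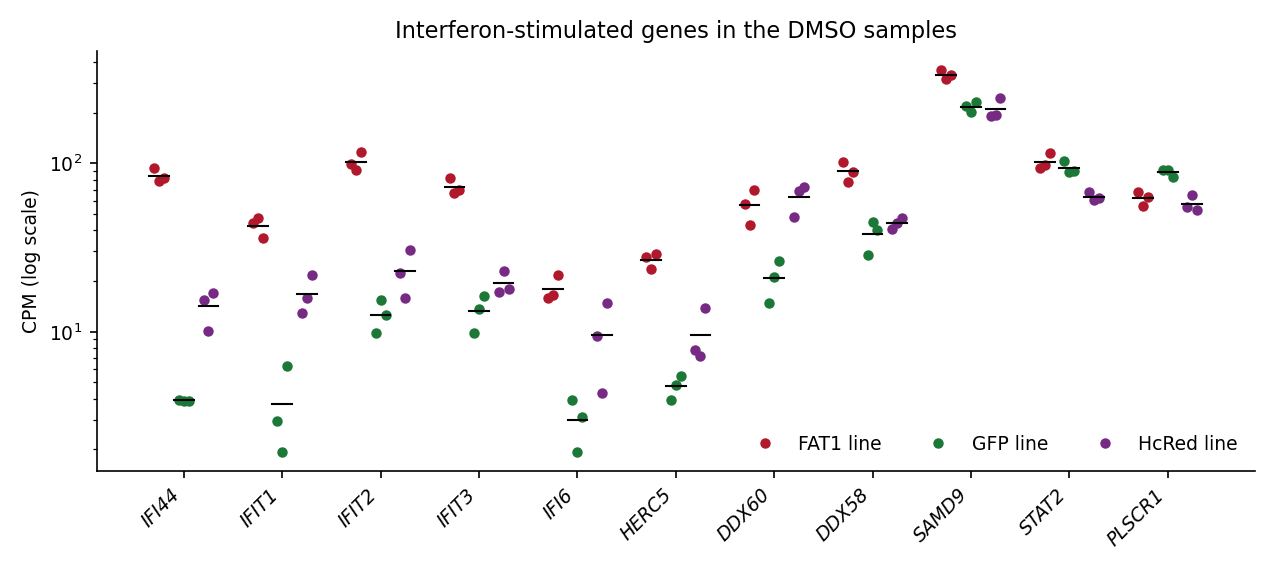
Level of 11 interferon-stimulated and related genes (CPM on a log axis) in the 3 DMSO samples each of the FAT1, GFP and HcRed lines, with bars for the group mean. IFI44 and the IFIT genes in FAT1 sit above every control sample, DDX60 in FAT1 lies above GFP and among the HcRed samples, and STAT2 shows no such separation from GFP.

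The largest falls were dominated by zinc finger genes. C2H2 zinc finger genes form the largest family of transcription factors in the human genome, and many of them lie in clusters on chromosome 19. Many of these carry a KRAB domain, which recruits repressors of transposable elements. The family was chosen for description after its members were seen among the largest falls. By symbol (ZNF, ZFP, ZSCAN or ZKSCAN), 540 were tested, of which 35 were higher and 171 lower in FAT1 than in GFP. On chromosome 19, 122 of 253 (48.2%) were lower and 1 was higher, with a median log2 difference of -0.67, whereas 47 of the other 710 genes of the chromosome were lower and 107 higher. Zinc finger genes of the other chromosomes numbered 284, with 47 lower (16.5%) and 33 higher (11.6%) and a median of 0.07. Over all genes the shares were 14.3% lower and 12% higher. These zinc finger genes differed by chromosome, with 7 of 10 lower on chromosome 4, 11 of 21 on chromosome 6 and 6 of 12 on X. On chromosome 16, 11 of 32 were higher and 0 lower. Other genes of these chromosomes moved too. On chromosome 4, 117 of 473 were lower and 36 higher, and on chromosome 6, 157 of 579 and 44. On X, 163 of 414 other genes (39.4%) were lower and 33 higher. On chromosome 16, 150 of 542 (27.7%) were higher and 62 lower.

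Within chromosome 19 the falls were found in both arms. On the short arm 41 of 77 zinc finger genes were lower and 1 higher, and on the long arm 81 of 176 were lower and 0 higher. In the block between 19.5 and 24.5 Mb, 25 of 29 zinc finger genes were lower with a median of -1.24, while none of the 9 other genes there was lower. In a block of the long arm that starts at 52 Mb it was 29 of 40, with a median of -1.03. These genes are close copies of each other, so reads that fit several copies may have been assigned unevenly or dropped.

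Against HcRed the pattern was smaller. Of the 245 chromosome 19 zinc finger genes tested against both controls, 41 were lower and 2 higher, with a median of -0.22, and 39 were lower than both controls. Among the 253 tested in FAT1 against GFP, GFP was called higher than HcRed in 61 and lower in 1. Over those averaging 10 or more reads per sample, the mean log2 CPM was 4.33 ± 0.01 in FAT1 and 5.09 ± 0.04 in GFP (SD, n = 3), the lowest and the highest of the 8 lines. The other 6 lines lay between 4.54 and 4.65, with HcRed at 4.60 ± 0.05.

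**Figure D4:**
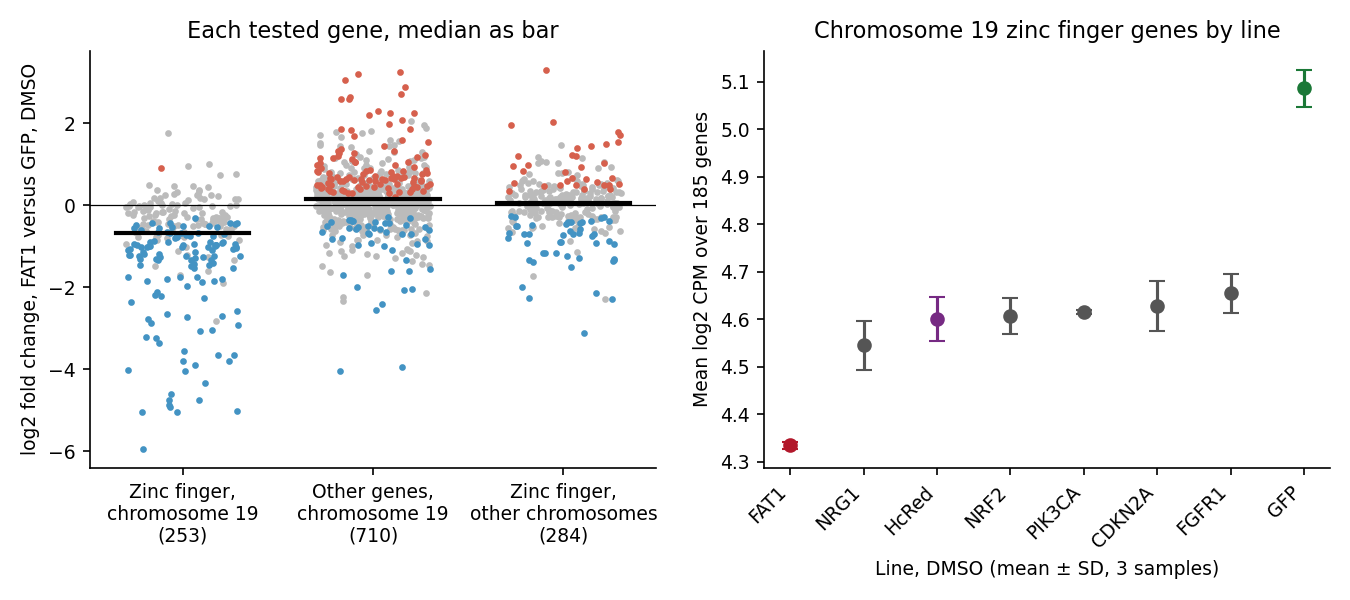
Left, log2 fold change of FAT1 against GFP in DMSO for each tested zinc finger gene of chromosome 19 (253), other gene of chromosome 19 (710) and zinc finger gene of other chromosomes (284), with genes past the test in red (higher) or blue (lower) and the median as a bar. Right, mean log2 CPM of the chromosome 19 zinc finger genes averaging 10 or more reads per sample in the 8 lines (mean ± SD of 3 samples, axis not starting at 0), with FAT1 lowest at 4.33 and GFP highest at 5.09.

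Several single zinc finger genes were close to absent in FAT1. ZNF347 had 0, 1 and 0 reads in FAT1, 41, 37 and 50 in GFP, and 16, 16 and 18 in HcRed. With 1 read in the group, the count ratio of GFP to FAT1, scaled for depth, was 128 with a 95% exact counting interval of 22.6 to 5092, and that of HcRed to FAT1 was 59.5 (10.2 to 2396). ZNF43 had 0, 1 and 1 reads against 27, 30 and 35 in GFP and 26, 12 and 21 in HcRed. Its ratios were 46.0 for GFP (12.4 to 385) and 35.1 for HcRed (9.30 to 297). Intervals cover counting error only. Both genes passed the test, with adjusted p = 1.73e-07 for ZNF347 and 1.26e-06 for ZNF43 against GFP.

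ZNF471 (1, 0 and 0 reads in FAT1 against 16, 24 and 30 in GFP and 9, 10 and 14 in HcRed) passed against both controls, with adjusted p = 6.38e-06 and 0.000111. So did ZNF682, with 0, 1 and 2 reads in FAT1, 31, 29 and 29 in GFP and 11, 6 and 10 in HcRed (adjusted p = 1.97e-06 and 0.000548). ZNF486 kept more reads, 10, 1 and 5 against 59, 58 and 66 in GFP and 38, 16 and 37 in HcRed, and was 13.9-fold lower than GFP (log2 -3.80 ± 0.45, adjusted p = 8.97e-09). ZSCAN18 had 0, 2 and 3 reads in FAT1, 20, 19 and 24 in GFP but only 4, 4 and 5 in HcRed. It passed against GFP (adjusted p = 1.65e-05) and not against HcRed (adjusted p = 0.0617).

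Genes with the largest single changes were taken by a rule, the 15 rises and 15 falls of largest log2 size past the test, kept where reads averaged 10 or more per sample and FAT1 and GFP did not overlap. Of the 15 rises, 10 were also called higher against HcRed and 1 was called lower, while 14, 15 and 13 were called higher under CSC, BaP and NNK. Of the 15 falls, 13 of 14 tested were called lower against HcRed, and all 15 were called lower under each carcinogen. The carcinogen comparisons use other samples of the same 2 lines.

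NECTIN3, an adhesion molecule that pairs with other nectins at cell junctions, had the largest rise. It had 35, 21 and 15 reads in FAT1, 5, 0 and 0 in GFP, and 8, 3 and 9 in HcRed. FAT1 was above every control sample, with log2 4.43 ± 0.79 over GFP (adjusted p = 2.98e-05) and 1.49 ± 0.39 over HcRed (adjusted p = 0.00238). VWDE, a gene with a von Willebrand factor domain, had 42, 32 and 30 reads against 1, 1 and 4 in GFP and 7, 5 and 8 in HcRed. Its log2 differences were 3.91 ± 0.57 (adjusted p = 8.11e-07) and 2.04 ± 0.36 (adjusted p = 4.01e-06).

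CCND2, which encodes cyclin D2, a partner of CDK4 and CDK6 in G1, had 257, 226 and 166 reads in FAT1, 6, 11 and 25 in GFP, and 177, 101 and 159 in HcRed. It was 16.1-fold higher than GFP (log2 4.01 ± 0.28, adjusted p = 4.15e-15) but differed from HcRed by only 0.30 ± 0.11 (adjusted p = 0.0374). In DMSO the CDKN2A knockout line and GFP had means of 6.35 and 12 CPM, and the other 6 lines lay between 146 and 387 CPM, with FAT1 at 188 ± 13.7.

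SEMA3E, a semaphorin, had 55, 40 and 39 reads in FAT1, 7, 8 and 12 in GFP, and 5, 1 and 5 in HcRed. It was higher by log2 2.21 ± 0.31 (adjusted p = 3.41e-07) and 3.27 ± 0.48 (adjusted p = 2.7e-08), and its FAT1 mean of 38.9 CPM was the highest of the 8 lines, the next being 11.8 CPM. FGF2, basic fibroblast growth factor, had 39, 19 and 18 reads against 6, 2 and 3 in GFP and 9, 4 and 12 in HcRed. Its differences were 2.67 ± 0.49 (adjusted p = 3.98e-05) and 1.29 ± 0.36 (adjusted p = 0.00504), and with NNK it did not pass. SMARCA1, a chromatin remodelling ATPase, was higher by 2.74 ± 0.28 over GFP and by 0.74 ± 0.18 over HcRed (adjusted p = 2.99e-10 and 0.000695). DPYSL3, a cytoskeletal regulator of the CRMP family, was higher by 3.18 ± 0.57 and 0.99 ± 0.34 (adjusted p = 3.3e-05 and 0.0274), with log2 differences of 0.17 under CSC and 1.28 under NNK, where it did not pass.

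Other large rises over GFP were not rises over HcRed. C3, complement component C3, had 23, 21 and 13 reads against 1, 2 and 5 in GFP and 24, 13 and 22 in HcRed, with FAT1 above every GFP sample and, in CPM, below every HcRed sample, where the difference did not pass (2.71 ± 0.54 and -0.32 ± 0.28, adjusted p = 0.00015 and 0.479). FKBP10, a collagen chaperone of the endoplasmic reticulum, lay between the controls with 29, 28 and 27 reads, 4, 2 and 8 in GFP and 56, 41 and 44 in HcRed. It was called higher than GFP (2.53 ± 0.43, adjusted p = 1.61e-05) and lower than HcRed (-0.998 ± 0.21, adjusted p = 0.000157).

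**Figure D5:**
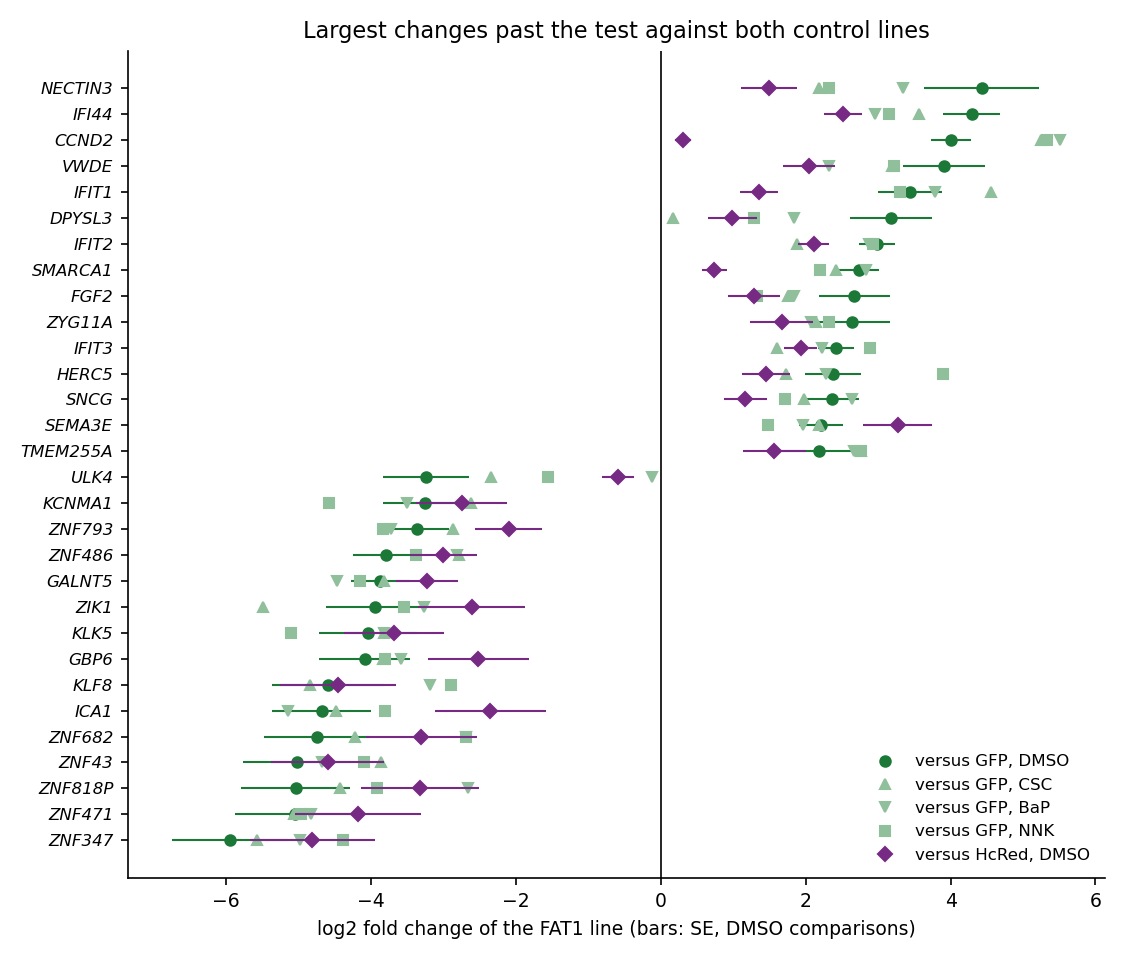
Log2 fold change (horizontal axis) of the 15 rises and 15 falls of largest size against GFP that also passed against HcRed, with circles for GFP and diamonds for HcRed in DMSO (bars, SE) and small symbols for GFP under CSC, BaP and NNK. CCND2 reaches 4.01 against GFP and 0.30 against HcRed, and ZNF347 is at -5.94 and -4.81.

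Genes outside that symbol family were also among the largest falls. GALNT5, a glycosyltransferase that starts mucin-type sugar chains, had 8, 3 and 3 reads in FAT1, 67, 58 and 82 in GFP, and 42, 30 and 41 in HcRed. FAT1 was far below both controls, 14.7-fold under GFP (log2 -3.87 ± 0.41, adjusted p = 5.57e-10) and at -3.23 ± 0.43 against HcRed (adjusted p = 1.47e-09). KLK5, a serine protease of the epidermis, had 0, 3 and 2 reads against 18, 28 and 26 in GFP and 15, 11 and 23 in HcRed (adjusted p = 1.12e-05 and 1.41e-05). KLF8, a Krüppel-like transcription factor with C2H2 zinc fingers, had 1, 0 and 1 reads against 30, 21 and 22 and 23, 8 and 27, with count ratios of 36.5 for GFP (9.74 to 307) and 34.5 for HcRed (9.13 to 292). KCNMA1, a calcium-activated potassium channel, had 2, 1 and 2 reads against 19 in each GFP sample and 12, 13 and 10 in HcRed (adjusted p = 3.26e-05 and 0.000447).

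RIC3, a chaperone of nicotinic acetylcholine receptors, had no read in any FAT1 sample, 26, 18 and 16 in GFP, and 1, 0 and 2 in HcRed. Against a floor of 3 reads over the FAT1 group, GFP was at least 20.0-fold higher, and HcRed was too low to be tested. GBP6, a guanylate-binding protein of the family induced by interferon gamma, went against the interferon list with 1, 2 and 1 reads in FAT1, 34, 24 and 29 in GFP and 9, 3 and 14 in HcRed (log2 -4.09 ± 0.62 and -2.52 ± 0.70, adjusted p = 2.07e-06 and 0.00432). ULK4, a pseudokinase, rests partly on 1 library, since it had 29, 29 and 26 reads in FAT1, 113, 115 and 1047 in GFP and 39, 29 and 38 in HcRed. Its log2 difference from GFP was -3.24 ± 0.59 (adjusted p = 4.59e-05) and -2.17 without GFP replicate 3. Against HcRed it was -0.59 ± 0.22 (adjusted p = 0.0472), and under BaP it was -0.13 and did not pass.

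Cytosolic ribosomal proteins build the small and large subunits of the ribosome, and their genes are among the most coordinated in the genome. Of 71 tested, 49 were higher in FAT1 than in GFP and 0 were lower, with a median log2 difference of 0.44. Against HcRed 40 were higher and 0 lower (median 0.39), and 36 were higher than both. The counts under carcinogens were 47 higher and 0 lower with CSC, 33 and 0 with BaP, and 42 and 1 with NNK. These genes took between 2.27% and 2.54% of the reads in the FAT1 samples, between 1.69% and 1.73% in GFP and between 1.78% and 1.79% in HcRed. RPS6, the small subunit protein phosphorylated by S6 kinase, had 2037, 1899 and 1649 reads in FAT1, 1196, 1136 and 1398 in GFP and 1222, 743 and 1098 in HcRed. Its log2 differences were 0.53 ± 0.05 (adjusted p = 2.2e-11) and 0.60 ± 0.05 (adjusted p = 1.13e-17). RPS24 rose by 0.94 ± 0.08 over GFP (adjusted p = 4.02e-13) and 0.49 ± 0.07 over HcRed (adjusted p = 6.67e-08). RPS2 was higher than GFP by 1.18 ± 0.11 (adjusted p = 1.43e-11) and reached 0.25 ± 0.10 over HcRed (adjusted p = 0.053). Ribosomal protein genes have many processed copies in the genome, which can take or lose reads in counting.

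GAS5 and SNHG5, noncoding hosts of small nucleolar RNAs that belong to the same class of transcripts with a terminal oligopyrimidine tract, were higher than GFP by 0.73 ± 0.13 and 0.42 ± 0.12 (adjusted p = 3.67e-05 and 0.00648) and than HcRed by 0.84 ± 0.14 and 0.68 ± 0.13 (adjusted p = 1.12e-06 and 4.45e-05). Of 56 nuclear-encoded respiratory chain genes, 15 were higher and 4 lower than GFP, whereas 7 were higher and 5 lower than HcRed. Without GFP replicate 3, 9 were higher than GFP, and DESeq2 called 5 higher and 3 lower. By symbol, 53 EIF genes, which encode translation initiation factors, had 6 higher and 11 lower than GFP, and 4 higher and 11 lower than HcRed, a family looked up after values were seen.

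Genes of mitosis were lower. Of 32 tested, 18 were lower and 2 higher than GFP (median -0.34), and 20 were lower and 0 higher than HcRed (median -0.38), with 13 lower than both. The mean log2 CPM of the list in DMSO was 7.47 ± 0.10 in FAT1, 7.72 ± 0.02 in GFP and 7.85 ± 0.05 in HcRed (SD, n = 3). FAT1 was not the lowest of the 8 lines, since the CDKN2A knockout line stood at 7.39 ± 0.03. CENPE, a kinesin of the kinetochore, had 442, 446 and 319 reads in FAT1, 713, 684 and 830 in GFP and 635, 388 and 636 in HcRed. Its log2 differences were -0.94 ± 0.07 (adjusted p = 1.98e-13) and -0.72 ± 0.08 (adjusted p = 6.86e-13), and no FAT1 sample reached a control in CPM. BUB1, a kinase of the spindle checkpoint, was lower by -0.77 ± 0.11 and -1.02 ± 0.11 (adjusted p = 4.25e-07 and 5.04e-13). AURKA, the centrosome kinase Aurora A, was lower by -0.45 ± 0.10 and -0.91 ± 0.10 (adjusted p = 0.000901 and 3.81e-12). TOP2A, the topoisomerase that untangles chromosomes, was lower than GFP by -0.81 ± 0.05 (adjusted p = 2.85e-17) but by only -0.15 ± 0.05 against HcRed (adjusted p = 0.027). HMMR, a spindle protein, was 1 of the 2 exceptions, with 0.45 ± 0.11 over GFP (adjusted p = 0.00141) and -0.33 ± 0.10 against HcRed (adjusted p = 0.00854). MKI67, the proliferation marker Ki-67, had a log2 difference of -0.04 ± 0.05 from GFP (adjusted p = 0.606). Its value against HcRed is not given here, so this covers the GFP control only.

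Clustered histone genes, which are transcribed in S phase, had 14 of 27 lower and 2 higher than GFP, and 13 lower and 0 higher than HcRed, with 11 lower than both. HIST1H1B, a linker histone gene, had 282, 435 and 322 reads in FAT1, 429, 578 and 543 in GFP and 599, 368 and 504 in HcRed (log2 -0.65 ± 0.11 and -0.80 ± 0.09, adjusted p = 2.4e-05 and 1.07e-11). FAT1 replicate 1 had the lowest share of histone reads, 0.404% against 0.541% and 0.582% in the other FAT1 samples and 0.579% to 0.697% in GFP. Without it, 5 histone genes were lower than GFP, and HIST1H1B was at -0.37. DESeq2 called 6 lower with all samples. Histone genes are close copies of each other, so their single values are uncertain.

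Of the p53 targets, more were higher than lower, while G1 genes were led by falls against GFP. Of 21 G1 genes, 3 were higher and 7 lower than GFP, but 6 were higher and 3 lower than HcRed. Of 24 p53 targets tested, 9 were higher and 0 lower than GFP, and 7 were higher and 0 lower than HcRed, with 3 higher than both. Without FAT1 replicate 1 the count was 5 higher and 1 lower. AALE cells were immortalized with the SV40 early region, whose large T antigen binds p53. MDM2, the p53 ubiquitin ligase, had 507, 367 and 297 reads in FAT1, 279, 214 and 323 in GFP and 246, 180 and 269 in HcRed. It was higher by log2 0.47 ± 0.09 (adjusted p = 0.000143) and 0.48 ± 0.09 (adjusted p = 3.8e-05). FDXR, a mitochondrial reductase induced by p53, was higher by 1.17 ± 0.28 and 1.31 ± 0.31 (adjusted p = 0.0013 and 0.000618). CDKN1A, which encodes the inhibitor p21, was at 0.09 ± 0.10 against GFP (adjusted p = 0.559) and at 0.86 ± 0.12 against HcRed (adjusted p = 3.61e-09). CDKN1B, the inhibitor p27, was higher than both (0.64 ± 0.14 and 0.58 ± 0.15, adjusted p = 0.00074 and 0.00154). CDKN1C, the inhibitor p57, had 149, 44 and 50 reads in FAT1 against 22, 14 and 45 in GFP and 25, 14 and 17 in HcRed, with log2 1.46 ± 0.30 over GFP (adjusted p = 0.000183). Without FAT1 replicate 1 it was 0.96. CCNE2, cyclin E2, was lower than GFP (-0.65 ± 0.11, adjusted p = 1.18e-05) and did not pass against HcRed (-0.08 ± 0.12, adjusted p = 0.706).

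Sterol and fatty acid synthesis genes are controlled together by the SREBP factors. Of 32 tested, 17 were lower and 3 higher than GFP (median -0.26), and 14 were lower and 2 higher than HcRed, with 10 lower than both. Under carcinogens, 18, 19 and 12 were lower with CSC, BaP and NNK, and 2, 1 and 3 higher. IDI1, an isomerase early in the isoprenoid branch, had 188, 181 and 158 reads in FAT1, 328, 373 and 452 in GFP and 401, 194 and 303 in HcRed. No FAT1 sample overlapped a control in CPM (154 ± 11.5, 346 ± 20.2 and 309 ± 34.4), and it was 2.26-fold lower than GFP (log2 -1.17 ± 0.09, adjusted p = 4.27e-13) and at -1.02 ± 0.10 against HcRed (adjusted p = 1.59e-14). MSMO1, a methylsterol oxidase, was lower by -0.93 ± 0.11 and -1.42 ± 0.11 (adjusted p = 1.06e-08 and 1.58e-20). HMGCS1, at the head of the pathway, was lower by -0.51 ± 0.09 and -0.48 ± 0.10 (adjusted p = 3.86e-05 and 5.5e-05). FADS2, a fatty acid desaturase, was lower by -0.69 ± 0.10 in both comparisons (adjusted p = 1.42e-06 and 7.86e-08). The mean log2 CPM of the list was 7.30 ± 0.03 in FAT1, the lowest of the 8 lines, against 7.58 ± 0.04 in GFP and 7.58 ± 0.06 in HcRed.

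FAT1 belongs to a small family of large cadherins. FAT2, which is typical of squamous epithelium, had 808, 638 and 644 reads in FAT1, 476, 449 and 601 in GFP and 648, 466 and 584 in HcRed. It was higher than GFP by log2 0.41 ± 0.07 (adjusted p = 1.61e-05) and at 0.03 ± 0.07 against HcRed (adjusted p = 0.805). FAT4, a partner of the Dachsous cadherins, was at 0.36 ± 0.15 over GFP (adjusted p = 0.0651). The Hippo core had 1 gene higher and 1 lower of 21 than GFP, and 2 higher and 5 lower than HcRed. YAP1 was at 0.07 ± 0.10 (adjusted p = 0.624) and at -0.56 ± 0.10 against HcRed (adjusted p = 3.38e-06). Of 20 YAP targets, 5 were higher and 3 lower than GFP, and of 21 against HcRed 3 were higher and 2 lower. The number lower than GFP was 1 without FAT1 replicate 3 or GFP replicate 2. CYR61, a matricellular target of YAP, had 87, 84 and 59 reads in FAT1, 23, 40 and 45 in GFP and 81, 52 and 52 in HcRed, and was higher than GFP (1.06 ± 0.19, adjusted p = 3.01e-05) but not than HcRed (0.06 ± 0.16, adjusted p = 0.841). NT5E, the ectonucleotidase CD73, was lower than both (-1.19 ± 0.13 and -0.88 ± 0.13, adjusted p = 8.14e-10 and 8.29e-08). AJUBA, a LIM protein that binds LATS kinases at junctions, was higher than both (0.32 ± 0.08 and 0.34 ± 0.09, adjusted p = 0.00265 and 0.00317).

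Keratins and attachment genes of basal cells moved in both directions. Basal keratins pair KRT5 with KRT14 and are anchored by hemidesmosomes to the basement membrane. KRT14 had 76, 41 and 43 reads in FAT1, 372, 427 and 538 in GFP and 631, 423 and 476 in HcRed. FAT1 was far below every control sample, 8.71-fold under GFP (log2 -3.12 ± 0.14, adjusted p = 9.21e-21) and at -3.54 ± 0.14 against HcRed (adjusted p = 4.03e-43), and its mean of 45.9 CPM was the lowest of the 8 lines, the next being 224 CPM. Its partner KRT5 was lower by only -0.25 ± 0.03 and -0.47 ± 0.03 (adjusted p = 1.47e-07 and 6.46e-23). KRT6A and KRT17, keratins of wounded or activated epithelium, were lower than GFP by -0.60 ± 0.06 and -0.56 ± 0.07 (adjusted p = 2.99e-10 and 2.54e-08) and than HcRed by -1.35 ± 0.06 and -1.43 ± 0.07 (adjusted p = 4.03e-43 and 1.25e-38). KRT8, a keratin of simple epithelium, had 205, 192 and 181 reads in FAT1, 62, 67 and 111 in GFP and 113, 64 and 112 in HcRed and was higher than both (1.24 ± 0.13 and 0.74 ± 0.12, adjusted p = 1.06e-09 and 1.35e-06). Keratin genes have near-identical copies, KRT14, KRT16 and KRT17 among them. TP63, the transcription factor of basal cells, was at -0.03 ± 0.09 against GFP (adjusted p = 0.86) and 0.17 ± 0.10 against HcRed (adjusted p = 0.278).

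Of 9 hemidesmosome and laminin-332 genes, 5 were lower and 3 higher than GFP, and 5 were lower and 1 higher than HcRed. ITGA6, the laminin receptor chain α6, had 623, 524 and 396 reads in FAT1, 827, 800 and 988 in GFP and 1145, 593 and 934 in HcRed, and was lower than both (-0.81 ± 0.07 and -1.05 ± 0.07, adjusted p = 5.93e-13 and 1.83e-25). DST, the linker of keratin to hemidesmosomes, was lower by -0.75 ± 0.05 and -0.43 ± 0.05 (adjusted p = 8.87e-17 and 2.52e-12). PLEC, the other linker, was higher than GFP by 0.37 ± 0.05 (adjusted p = 2.64e-07) and lower than HcRed by -0.45 ± 0.04 (adjusted p = 3.06e-16). Tight and gap junction genes had 3 of 16 higher and 6 lower than GFP, and 1 higher and 3 lower than HcRed, with 1 higher than GFP without GFP replicate 3. CGN, cingulin of tight junctions, went against the leading direction and had 288, 247 and 195 reads against 86, 99 and 107 in GFP and 115, 65 and 99 in HcRed, with every FAT1 sample above the controls (log2 1.27 ± 0.11 over GFP, adjusted p = 9.98e-12, and adjusted p = 2.84e-13 against HcRed). PKP2, a desmosome plaque protein, was also higher than both (0.76 ± 0.12 and 0.45 ± 0.12, adjusted p = 3.39e-06 and 0.00317), whereas CDH1 was lower than GFP (-0.33 ± 0.07, adjusted p = 0.000136) and at -0.18 ± 0.07 against HcRed (adjusted p = 0.0642).

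The Notch pathway signals between neighbouring cells and steers basal cells toward differentiation. Of 16 genes tested, 4 were higher and 0 lower than GFP and the same counts held against HcRed, with 3 genes higher than both. Without GFP replicate 3, and in DESeq2, 2 were higher than GFP. NOTCH1 had 330, 229 and 193 reads in FAT1, 86, 83 and 88 in GFP and 94, 64 and 69 in HcRed. Every FAT1 sample was above both controls, by 2.80-fold over GFP (log2 1.49 ± 0.12, adjusted p = 1.66e-12) and by 1.45 ± 0.13 over HcRed (adjusted p = 3.89e-17). Its ligand JAG1 was higher by 0.69 ± 0.13 and 0.64 ± 0.13 (adjusted p = 6.86e-05 and 6.75e-05), with log2 differences of 0.23, 0.23 and 0.15 under CSC, BaP and NNK that did not pass. Under NNK the list had 1 gene higher and 2 lower.

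For some matrix and contractile genes the controls lay on opposite sides of FAT1. FN1, fibronectin, had 381, 382 and 333 reads in FAT1, 107, 123 and 174 in GFP and 892, 578 and 785 in HcRed. It was called higher than GFP (1.40 ± 0.11, adjusted p = 1.1e-13) and lower than HcRed (-1.30 ± 0.08, adjusted p = 8.33e-30). TPM2, a tropomyosin, was likewise at 1.75 ± 0.29 and -1.50 ± 0.17 (adjusted p = 9.04e-06 and 8.18e-12). LAMB2, a laminin chain, was higher than both (1.40 ± 0.13 and 0.94 ± 0.13, adjusted p = 1.37e-11 and 2.09e-09). Of 32 actin and adhesion genes, 10 were higher and 9 lower than GFP, and of 33 against HcRed 7 were higher and 7 lower, with 4 in each direction against both. Of the matrix integrins, ITGAV, the integrin chain αv, was lower than both (-0.79 ± 0.09 and -0.74 ± 0.10, adjusted p = 6.7e-09 and 3.03e-09).

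Stress pathways differed in how far they depended on the control. NRF2 targets, which protect against oxidants and electrophiles, had 9 of 30 lower and 4 higher than GFP and 7 lower and 3 higher than HcRed, with 6 lower than both. Only 5 were lower than GFP without FAT1 replicate 3 or without GFP replicate 3, 6 without FAT1 replicate 1, and 5 in DESeq2. NQO1, a quinone reductase, had 73, 79 and 93 reads in FAT1, 168, 159 and 163 in GFP and 135, 89 and 128 in HcRed, and was lower by -1.07 ± 0.14 and -0.81 ± 0.14 (adjusted p = 1.67e-07 and 3.46e-06). NFE2L2, the gene of NRF2 itself, was lower by -0.75 ± 0.10 and -0.48 ± 0.11 (adjusted p = 1.73e-07 and 0.00029). The ATF4 and amino acid list showed no such persistence, with 8 of 22 lower and 2 higher than GFP but 0 lower and 6 higher of 21 against HcRed, and no gene called the same way in both. PSAT1, an enzyme of serine synthesis, had 262, 181 and 171 reads in FAT1, 577, 615 and 654 in GFP and 226, 141 and 200 in HcRed, so it was 3.12-fold lower than GFP (adjusted p = 3.23e-18) and at -0.16 ± 0.11 against HcRed (adjusted p = 0.323). GFP was higher than HcRed in 13 genes of that list. Heat shock genes had 4 of 16 higher and 5 lower than GFP, but 1 higher and 8 lower than HcRed. HSPB1, a small heat shock protein, was higher than both (1.48 ± 0.14 and 0.73 ± 0.13, adjusted p = 5.75e-11 and 3.25e-06), and the chaperone HSP90AB1 was lower than both (-0.78 ± 0.06 and -0.64 ± 0.06, adjusted p = 8.45e-14 and 8.32e-17).

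Genes of FGF and other receptor kinase signalling had 6 of 32 higher and 5 lower than GFP, and 4 higher and 5 lower of 31 against HcRed. Single samples moved these counts: 3 were higher without FAT1 replicate 1 or 3 or any of the GFP replicates, and 2 were lower without FAT1 replicate 1 or GFP replicate 3. FGFBP1, a secreted carrier that releases FGF2 from the matrix, had 33, 36 and 23 reads in FAT1, 112, 175 and 214 in GFP and 110, 58 and 111 in HcRed. It was 5.49-fold lower than GFP (log2 -2.46 ± 0.20, adjusted p = 8.63e-13) and at -1.85 ± 0.19 against HcRed (adjusted p = 5.89e-14), with no overlap. CA12, a membrane carbonic anhydrase, had 6, 13 and 8 reads against 25, 39 and 60 in GFP and 77, 30 and 67 in HcRed (-2.24 ± 0.35 and -2.96 ± 0.33, adjusted p = 3.11e-06 and 9.18e-13). ALDOC, an aldolase, was higher than both (2.06 ± 0.35 and 1.11 ± 0.30, adjusted p = 1.42e-05 and 0.00401). Glycolysis and hypoxia genes as a list had 11 of 33 lower and 7 higher than GFP, and 9 lower and 4 higher than HcRed.

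Positions in the genome also carried differences, and they were described after the values were seen. Among genes averaging 10 or more reads per sample, the median log2 difference of FAT1 from GFP was -0.49 on chromosome X, where 150 of 311 genes were lower, and -0.33 on chromosome 13. It was 0.39 on chromosome 22, 0.28 on chromosome 16 and 0.27 on chromosome 17. Against HcRed the medians were -0.25 on X, -0.13 on 13, 0.03 on 22, -0.05 on 16 and 0.21 on 17, and the chromosomes farthest from 0 were 4 at -0.40, 2 at -0.39 and 9 at 0.37. The medians against GFP also followed GC content, from -0.14 in the fifth of genes with the lowest GC to 0.25 in the fifth with the highest. After a correction for GC and length these became 0.05 and 0.01. The median was then -0.44 on X, while that of chromosome 22 fell from 0.39 to 0.24. Chromosome 19 moved from -0.0034 to -0.18. Whether copy number, a batch or growth in culture took part was not tested, and a difference between lines cannot be told apart from an effect of the edit with 1 line per genotype.

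Around FAT1 on the long arm of chromosome 4, genes differed among themselves, and they were chosen after their values were seen. Toward the chromosome end, ZFP42, a zinc finger gene of stem cells, had 4, 5 and 13 reads in FAT1, 27, 25 and 23 in GFP and 13, 5 and 9 in HcRed, and was lower than GFP (-2.0 ± 0.39, adjusted p = 0.000128) but not than HcRed (-0.79 ± 0.45, adjusted p = 0.229). FRG1, farther toward the end and with many copies in the genome, had 5, 9 and 3 reads against 23, 29 and 24 and 45, 14 and 45, and was lower than both (-2.20 ± 0.41 and -2.81 ± 0.41, adjusted p = 4.99e-05 and 4.13e-08). On the other side CYP4V2 was at -0.36 ± 0.26 against GFP (adjusted p = 0.343) and -1.05 ± 0.26 against HcRed (adjusted p = 0.00121). TENM3, a teneurin of cell contacts farther away, was higher than both, with 129, 79 and 95 reads against 20, 24 and 30 and 16, 13 and 5 (1.95 ± 0.21 and 3.0 ± 0.30, adjusted p = 8.62e-10 and 9.75e-15).

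Other lists are given by their counts. Over all genes, 12% were higher and 14.3% lower than GFP, and 8.94% higher and 10.6% lower than HcRed. A mixed list of long noncoding RNAs had 5 of 9 higher and 0 lower than GFP, and 3 higher and 1 lower than HcRed. Those higher than GFP include GAS5 and SNHG5, already described above, and also MIR205HG and NEAT1. Collagen and matrix genes had 9 of 26 higher and 4 lower than GFP, and 6 higher and 7 lower of 28 against HcRed, where 2 were lower than GFP without FAT1 replicate 1, FAT1 replicate 3 or GFP replicate 3. S100 genes had 2 of 12 higher and 4 lower than GFP, and 0 higher and 5 lower of 11 against HcRed, with 2 lower than GFP without FAT1 replicate 1. DNA replication genes had 2 of 30 higher and 8 lower than GFP, and 3 higher and 5 lower than HcRed.

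Immediate early and AP-1 genes had 6 of 29 higher and 3 lower than GFP, and 5 higher and 10 lower than HcRed, with 3 higher than GFP without FAT1 replicate 2. Of 36 Wnt genes, 3 were higher and 4 lower than GFP, and of 37 against HcRed 1 was higher and 5 lower, with 2 lower than GFP without FAT1 replicate 3. Of 26 TGF-β, BMP and activin genes, 5 were higher and 6 lower than GFP, and of 28 against HcRed 2 were higher and 5 lower. Without GFP replicate 3, 3 were lower than GFP, and without GFP replicate 2, 3 were higher. Proteasome genes had 5 of 31 higher and 5 lower than GFP, and 2 higher and 5 lower than HcRed, with 2 higher than GFP without FAT1 replicate 2 or GFP replicate 3. Genes of the unfolded protein response had 2 of 20 higher (10%) and 3 lower (15%) than GFP, and 2 higher and 5 lower than HcRed. The shares higher and lower than GFP were 8.33% and 11.1% for Wnt genes and 16.1% each for proteasome genes. For these lists, the shares against GFP lie near those over all genes, 12% and 14.3%.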

How the data were processed

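The authors trimmed 75 base single-end reads with cutadapt 1.12, aligned them to hg19 with STAR 2.5.2b and counted reads per RefSeq gene with featureCounts, per the labels and the study's methods. The deposited values are raw counts of 27978 genes per sample. Strand use in counting is not given in the sources used here. Genes with a mean count above 1 over the fitted samples were tested with TMM scaling, voom and limma 3.58.1 (R 4.3.3), with adjustment by Benjamini-Hochberg and a cutoff of 0.05. The 6 DMSO samples of FAT1 and GFP were fitted alone, and FAT1 against HcRed and the carcinogen comparisons were fitted in the same way. Levels are CPM with TMM factors taken over the 95 samples, and log2 CPM used a prior count of 2. The step was tested on simulated data. edgeR 4.0.16, DESeq2 1.42.0, other filters, a correction for GC and length, a replicate block and leaving out each sample were tried. Groups came from the sample labels. Members and lists were chosen with earlier results of these data known. Named genes were the 15 largest rises and falls averaging 10 or more reads and without overlap, the same with HcRed added, and members of the lists, some of them chosen after their values were seen. A few results are not reported here.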

Additional observations from a re-analysis of the deposited data

How the results depend on the processing

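In FAT1 against GFP in DMSO, edgeR called 3828 genes and DESeq2 1983, of which the share higher was 45.8% in limma-voom, 39.6% in DESeq2 and 50.3% after the GC and length correction. DESeq2 called 1357 genes against HcRed, 2138 under CSC, 1077 under BaP and 858 under NNK, and the cause was not tested. Leaving out each sample gave 2973 to 3272 calls in DMSO, 2124 to 2431 against HcRed, 2741 to 3236 under CSC, 1707 to 2651 under BaP and 1362 to 2184 under NNK, with fewer samples in each fit. Under BaP the count was 1789 without FAT1 replicate 1 and 1707 without GFP replicate 1. Under NNK it was 1362 without GFP replicate 1, where 33.8% were higher against 43.2% with all samples.

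With the replicate number as a block, calls were 3817 in DMSO, 2821 against HcRed, 3411 under CSC, 2872 under BaP and 2097 under NNK. The deviations of same-numbered samples correlated between -0.0256 and 0.0277 over all tested genes. Counting noise in genes with few reads can hide a shared deviation, so these values do not settle whether the numbers pair the samples.

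Of 97 named genes, 94 kept their direction and side of the threshold in DESeq2 and all 97 in edgeR. With HcRed as the control, 71 kept both and 10 changed direction. A further 11 kept their direction but passed only against GFP, and 4 kept it but passed only against HcRed. Against HcRed in place of GFP the log2 difference turned to -0.32 for C3, -0.15 for DDX60, -0.998 for FKBP10, -1.30 for FN1, -0.33 for HMMR, -0.33 for LGALS3BP, -0.45 for PLEC, 0.17 for TP63, -1.50 for TPM2 and -0.56 for YAP1. The GC and length correction turned CDKN1A to -0.13, MKI67 to 0.014 and TP63 to 0.13. Over the fits that leave out a sample, MKI67 ranged from -0.11 without FAT1 replicate 2 to 0.020 without FAT1 replicate 1, and TP63 from -0.10 without FAT1 replicate 1 to 0.039 without GFP replicate 3, with 0.023 without FAT1 replicate 2. CDKN1A was -0.018 without FAT1 replicate 1. After the GC and length correction the chromosome 19 zinc finger genes had 0 higher and 105 lower, while the other genes of that chromosome turned to 48 higher and 90 lower. Without GFP replicate 1, 65 of those other genes were higher. Totals of 970886 to 1333632 reads per sample limit what can be seen for genes with few reads.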
